A study of Mus musculus with 6 samples.

Results

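NF-κB subunits and their negative regulators were followed across 6 arrays of mouse retina RNA, taken at postnatal day 21. The set comprised 8 genes: the subunit genes Rela, Relb, Nfkb1 and Nfkb2, the inhibitor genes Nfkbia and Tnfaip3, the adaptor gene Traf3 and Traf3ip3, whose product binds TRAF3. The members were selected on the measured difference between the genotype groups of these same arrays, so their differences are given as description. Calls and intervals given for members below come from a fit over all tested probe sets, and nothing is concluded from these calls. Every probe set that the platform annotation assigns to these symbols alone was taken, which gave 12 of the 45037 non-control probe sets and 6 of the 18193 genes named by them. For Nfkb1 and Traf3 the annotation used named no probe set, and neither was analysed here. Of the 12 probe sets, 10 passed a filter on low signal (a mean log2 signal at or above the 40th percentile). The only probe set of Relb and 1 of 2 for Nfkb2 did not.

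The wildtype group was 3 samples of C57Bl/6 retina. The other group was 3 samples labelled ERRβ -/- knockout, on a mixed C57Bl/6 x Sv129 background, so that genotype and strain differ together and cannot be told apart. Each sample was a pool of 2 retinas, the sex is given as mixed in both groups, and the labels do not say whether pools came from separate animals, so every error and p-value covers the variation among these pools, which may be technical. The comparison asks which retinal transcripts differ when the orphan nuclear receptor ERRβ, encoded by Esrrb, is targeted.

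Replicates 1 and 2 of each group had been scaled to a trimmed mean near 500 and replicate 3 of each group to one near 150. A signal is therefore compared only within these scaling batches, and the log2 change given below is labelled knockout minus wildtype over 3 arrays per group, with its standard error (SE) from a limma fit that holds the batch as a block. Array medians near 500 were 135 and 130 in wildtype against 118 and 114 with the knockout label. Near 150 the order was the reverse, 57.3 against 61.5. The 3 probe sets of Esrrb were not lower but higher in value in the labelled knockout arrays (0.19 to 0.45). None of them passed (lowest adjusted p = 0.0529 in limma). The place of these probe sets relative to the deleted part is unknown here, so they do not check the labels. All 5 tested rod markers (Sag, Gnat1, Pde6a, Pde6b and Nrl) read 1316 or more in every array, far above the medians, so defining markers of the labelled tissue were present. Their log2 changes over the 6 arrays were all below 0, from -0.43 for Pde6a to -0.01 for Pde6b with a median of -0.25. None passed in limma (3 at an unadjusted p under 0.05). In the arrays scaled near 150 the median of these markers was 0.01, with -0.23 for Nrl and the others from 0.003 to 0.04. Their summed signal was 184200 and 179749 in wildtype and 145976 and 163374 with the knockout label near 500, and 28025 and 27258 near 150. Lens and pigment cell transcripts moved with the groups: 6 of 6 lens fibre markers rose, with a summed signal of 1397 and 1125 in wildtype against 35308 and 30908 with the knockout label near 500, and 2449 against 18030 near 150. Of 6 pigment cell markers 4 rose, and their sums were 12477 and 11359 against 18032 and 18383, and 433 against 887. For the control gene Actb, the ratio of 3′ to 5′ signal was 1.83 to 2.32 in wildtype and 1.66 to 1.82 in labelled knockout arrays, while that of Gapdh ran from 0.712 to 0.779 without a split. The part of these differences in the results below was not tested.

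NF-κB is a family of dimeric transcription factors that IκB proteins hold in the cytoplasm. In the canonical arm a receptor signal passes through adaptors and ubiquitin ligases to the IκB kinase complex, IκBα (Nfkbia) is destroyed, and dimers with RelA enter the nucleus. In the non-canonical arm the kinase NIK (Map3k14), which TRAF3 keeps low, drives processing of the Nfkb2 product p100 to p52, the partner of RelB. Several NF-κB target genes encode its own brakes, above all Nfkbia and Tnfaip3, so their transcripts are commonly read as a feedback arm of the pathway. In the retina the pathway is known from glia, microglia and vessels and from photoreceptor stress.

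The upstream sequences of 3 members are shown because 2 of these genes, Tnfaip3 and Nfkbia, are feedback targets with unlike values here, and the third, Traf3ip3, had the largest change of the set. Each run gives the 250 bases before the annotated start, 5′ to 3′ on the strand of the gene, from RefSeq on GRCm38.p6. Capitals mark matches to the κB consensus on either strand, searched as GGGRNNYYCC (R is A or G, Y is C or T, N any base). Stretches that depart from these letters stay in lower case and are not counted.
Tnfaip3 (chr10:19015411-19015660, minus strand): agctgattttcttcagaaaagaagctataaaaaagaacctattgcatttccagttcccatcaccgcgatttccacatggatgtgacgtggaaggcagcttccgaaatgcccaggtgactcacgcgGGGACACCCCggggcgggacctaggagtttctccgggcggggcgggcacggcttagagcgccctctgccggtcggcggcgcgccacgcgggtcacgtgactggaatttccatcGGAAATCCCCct
Nfkbia (chr12:55492648-55492897, minus strand): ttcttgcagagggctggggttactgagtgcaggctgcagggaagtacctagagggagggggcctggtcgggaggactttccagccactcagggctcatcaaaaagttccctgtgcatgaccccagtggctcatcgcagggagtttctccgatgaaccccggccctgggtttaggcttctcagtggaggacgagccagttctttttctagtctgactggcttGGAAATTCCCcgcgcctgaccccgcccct
Traf3ip3 (chr1:193201547-193201796, minus strand): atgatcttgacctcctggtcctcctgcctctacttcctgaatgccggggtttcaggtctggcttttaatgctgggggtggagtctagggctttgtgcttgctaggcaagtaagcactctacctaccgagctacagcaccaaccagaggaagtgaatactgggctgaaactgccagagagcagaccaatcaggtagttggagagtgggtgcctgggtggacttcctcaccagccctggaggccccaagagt
The Tnfaip3 window held matches at 2 positions, whose first bases lie 125 and 12 bases before the start, the former matching on both strands. The Nfkbia window held 1, which begins 29 bases before the start, and the Traf3ip3 window held none. Of the 9 windows listed for 6 member genes, 6 held a match, among them all 3 of Nfkb2, of which 2 overlap, and that of Traf3; those of Rela and Traf3ip3 and a second, internal one of Tnfaip3 did not. Across 32851 windows of the same length, 7.25% held a match. The ERR response element, searched as TNAAGGTCA on both strands, was in none of the 9 member windows and in 1.14% of all windows. A match is a stretch of letters and not a measured binding site.

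Tnfaip3 encodes A20, an enzyme that edits ubiquitin chains on signalling adaptors and thereby shuts the canonical arm off. Its brighter probe set (1433699_at) read 7454 and 7422 in the wildtype arrays scaled near 500 against 3836 and 3935 in the labelled knockout arrays. In the arrays scaled near 150 it read 1703 against 1128. The labelled knockout value lay below every wildtype value of its batch, and replicates within a group differed by far less than the groups did. The log2 change was -0.82 ± 0.086 (SE, n = 3 per group), with -0.94 and -0.59 in the 2 batches. The second probe set (1450829_at) read 2843 and 3022 against 1410 and 1318, and 421 against 335. It showed the same order without overlap, with a log2 change of -0.85 ± 0.15, and -1.10 and -0.33 in the batches. Tnfaip3 was thus lower on both of its probe sets, by 1.91-fold and 2.15-fold in the arrays scaled near 500 and by 1.51-fold and 1.26-fold in those scaled near 150. In RNA of whole retina, fewer cells that hold a transcript and less of it per cell cannot be told apart.

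Traf3ip3, also called T3JAM, encodes a membrane-anchored protein that binds TRAF3 and is best known from lymphocytes. Its single probe set (1434573_at) read 454 and 676 in the wildtype arrays scaled near 500, where the labelled knockout arrays read 76.8 and 37.8. In the other batch the wildtype array read 93.8 and its labelled knockout counterpart 23.5. The groups did not overlap in either batch. The log2 change was -2.91 ± 0.37 (SE, n = 3 per group), or -3.36 and -1.99 within the batches, which are 10.3-fold and 3.98-fold lower signals. All 3 labelled knockout signals lay under the median of their array, where no detection limit is given, so the size is approximate; with 16 added to every signal the change was -2.50. Of 10 lymphocyte markers, 8 had a named probe set, and each of these was under the filter on low signal. Their summed signal was 233 and 222 in wildtype and 194 and 137 with the knockout label near 500, and 109 and 146 near 150, and no marker was listed at 0. Their part in the Traf3ip3 difference was not tested.

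**Figure D1:**
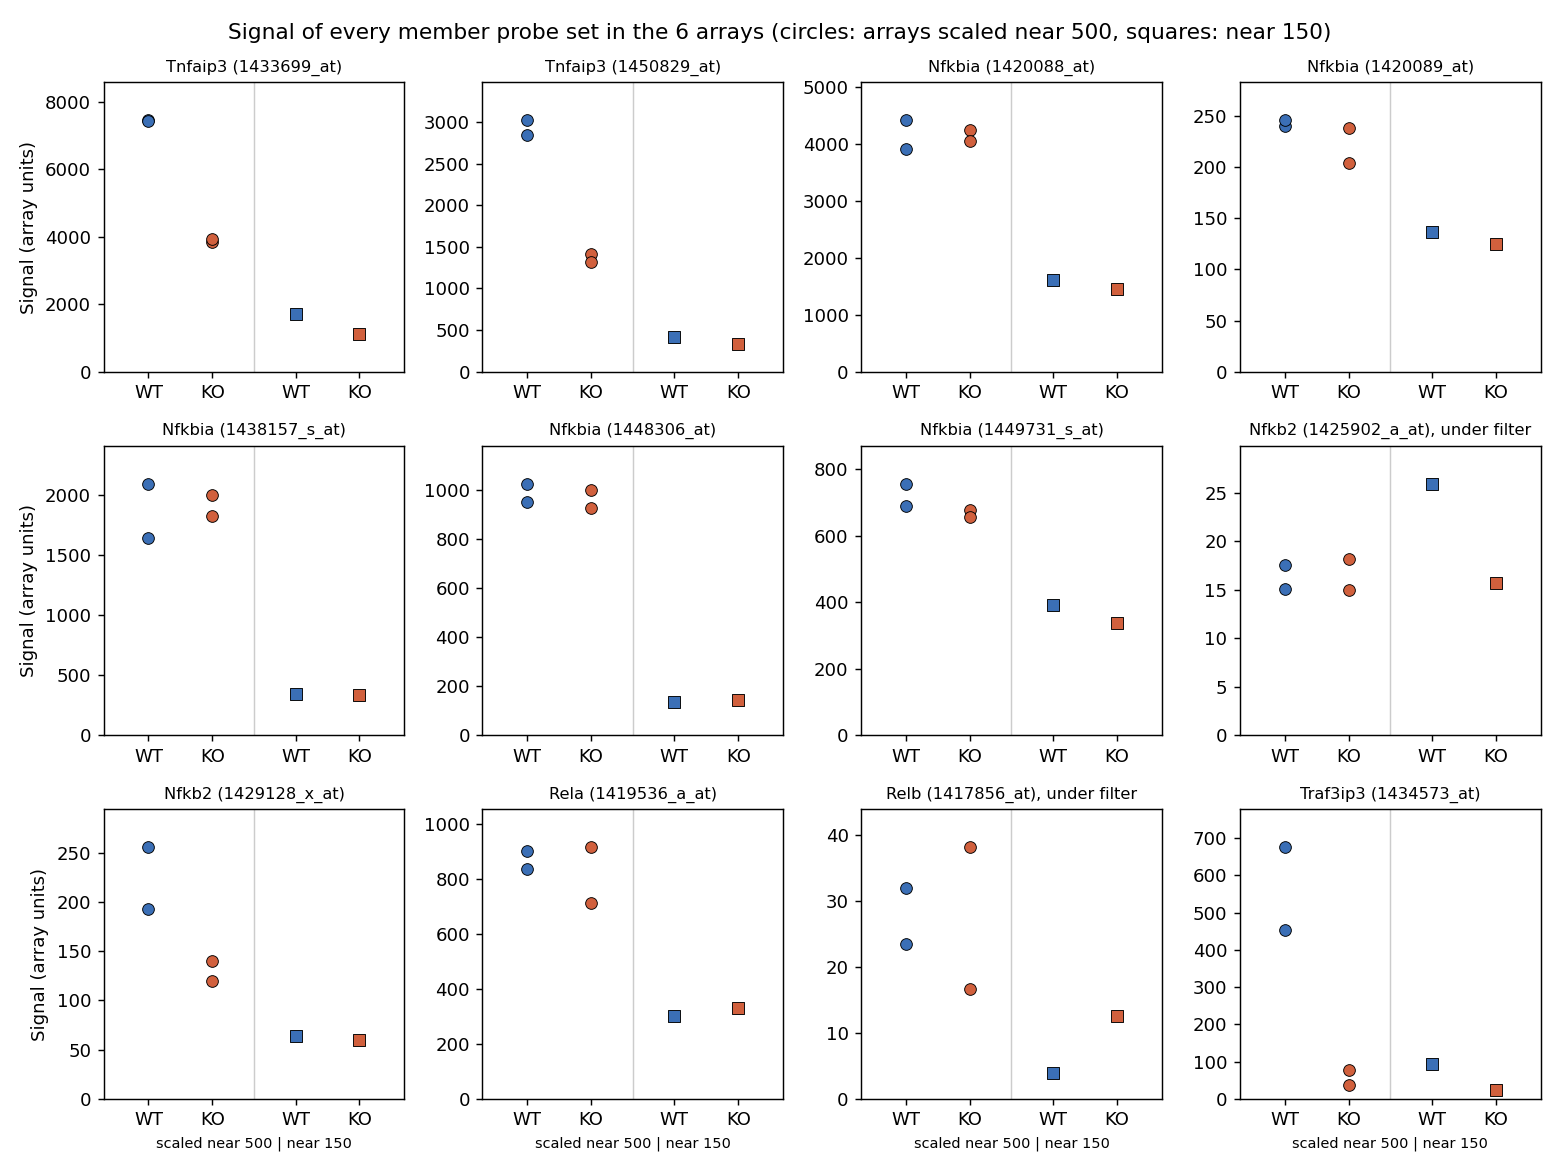
Signal of each of the 12 probe sets (vertical axis, array units from 0, a panel per probe set) in wildtype (WT, blue) and labelled knockout (KO, orange) arrays, with a point per array. Circles are the 4 arrays scaled near 500 and squares the 2 scaled near 150, which are compared only among themselves. Both Tnfaip3 probe sets and that of Traf3ip3 are lower in every labelled knockout array than in any wildtype array of the same batch. The same order holds, with smaller log2 changes, for Nfkb2 1429128_x_at and for Nfkbia 1420089_at and 1449731_s_at. The Nfkbia and Rela points lie close together.

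Nfkbia encodes IκBα, the inhibitor that holds RelA dimers in the cytoplasm and is itself induced by them. Its 5 probe sets had log2 changes from -0.15 to 0.01. Probe set 1420088_at read 3919 and 4420 in the wildtype arrays scaled near 500, 4248 and 4052 with the knockout label, and 1608 against 1460 in the other batch. The groups overlapped in the first batch, and the change was -0.05 ± 0.080 with a 95% interval from -0.23 to 0.13. Probe set 1448306_at read 950 and 1024 against 924 and 1000, and 136 against 143, a change of 0.00 ± 0.11. For 1420089_at (-0.14 ± 0.16) and 1449731_s_at (-0.15 ± 0.10) the labelled knockout arrays were lower in both batches, by amounts close to their SE. The fifth, 1438157_s_at, had 0.01 ± 0.11. The suffix s marks probe sets whose probes can match several transcripts. The widest of the 5 intervals was that of 1420089_at, from -0.50 to 0.23.

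Rela encodes the transactivating subunit of the canonical dimer. The wildtype signals were 902 and 836 in the first batch, where those labelled knockout were 917 and 715, and the second batch gave 300.4 against 331. The groups overlapped, and the change was -0.02 ± 0.12 with a 95% interval from -0.30 to 0.26. Nfkb2 encodes p100, both precursor of a subunit and inhibitor of RelB. Its probe set 1429128_x_at, whose suffix warns of cross-hybridisation, read 256 and 193 against 120 and 140, and in the second batch 0.938 times the wildtype signal of 64.0. The labelled knockout arrays were the lower ones in both batches, but the change was -0.55 ± 0.24, with -0.78 and -0.09 in the batches. The other probe set of Nfkb2 (1425902_a_at) read 15.0 to 18.2 in the arrays scaled near 500 and lay under the filter. Relb, the partner of p52, read 23.4 and 31.9 against 16.6 and 38.1, and 3.93 against 12.5, all under the array medians, so no direction is given for it.

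**Figure D2:**
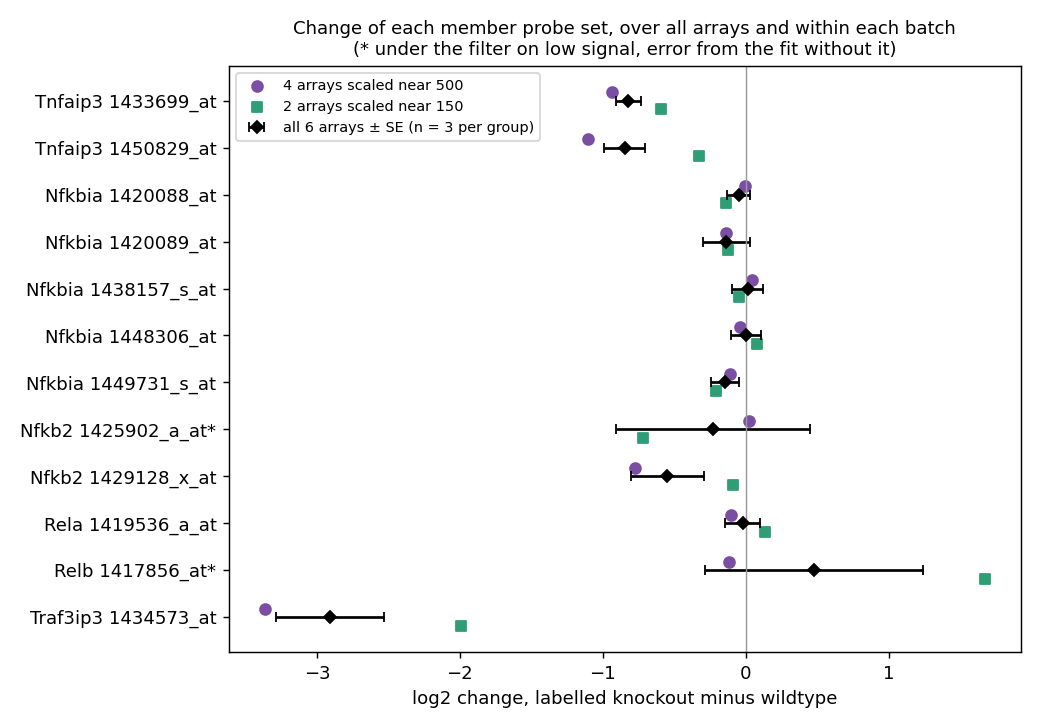
Log2 change, labelled knockout minus wildtype (horizontal axis), of each of the 12 probe sets. Black diamonds are the change over all 6 arrays with SE (n = 3 per group), purple circles the 4 arrays scaled near 500 and green squares the 2 scaled near 150; asterisks mark the 2 probe sets under the filter. Tnfaip3 and Traf3ip3 lie to the left of 0 in both batches, from -0.33 to -3.36. Nfkb2 1429128_x_at (-0.78 and -0.09) and Nfkbia 1420088_at, 1420089_at and 1449731_s_at (-0.0046 to -0.21) also lie to the left in both. Over all 6 arrays Nfkbia and Rela lie near 0.

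In the limma fit over all 27022 kept probe sets, 3 of the 10 kept member probe sets passed an adjusted p of 0.05, all lower: both of Tnfaip3 and that of Traf3ip3. Of all kept probe sets 2.25% passed, and 1.22% of all kept probe sets passed as lower. Nothing is read from that count, because the members were chosen with it known. Of the 10 probe sets, 6 were lower in every labelled knockout array than in every wildtype array of the same batch, which held for 17.2% of all kept probe sets. These calls rest on how the spread was estimated. With no scaling batch in the fit, or with no trend of the variance on signal, 0 of the 10 passed in limma (1 and 4 at an unadjusted p under 0.05). The second probe set of Tnfaip3 did not pass with a replicate block or without any single array scaled near 500, and Traf3ip3 did not pass without wildtype replicate 1 or 2. The filter used the mean over all 6 arrays, and Traf3ip3 was kept through its wildtype signals (454, 676 and 93.8). Its labelled knockout signals were 76.8, 37.8 and 23.5, where the filter lay at a geometric mean of 54.5. With the 60th percentile filter Traf3ip3 was not tested.

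Genes acting above, beside and below the members were taken from 6 lists of 112 genes that held no member. Of these, 67 were tested, 37 lay under the filter and 8 had no named probe set. In the limma fit 1 of the 67 rose, none fell and 66 did not pass (12 at an unadjusted p under 0.05). Of all 12536 genes, 2.75% passed, 1.28% as higher and 1.48% as lower, and 21.3% had an unadjusted p under 0.05. The median log2 change of the 67 genes was 0.01, against 0.02 over all genes. The genes under the filter included much of the inflammatory output of the pathway: Tnf, Il6, Ccl2, Ccl5, Cxcl10, Icam1, Nos2 and Ptgs2, as well as the fifth subunit gene Rel, and 34 of these 37 read below the array median in all 6 arrays.

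Among ligands and receptors, 1 of 11 tested genes rose, none fell and the list's median was 0.04. Il18, a cytokine that signals to NF-κB through MyD88, was the gene that rose. It read 637 and 534 in wildtype against 1409 and 1380 in the first batch, and 188 against 219 in the second. The groups did not overlap in either batch, and the change was 0.91 ± 0.19 (adjusted p = 0.0463 in limma), with 1.26 and 0.22 in the batches. That call did not hold with a replicate block (adjusted p = 0.0955), with no scaling batch in the fit, with no filter, with no variance trend, with quantile normalization or without any single array scaled near 500. Tlr2, a receptor of bacterial lipoproteins, had the largest rise in value, 1.02 ± 0.37 from low signals (56.7 and 51.4 against 174 and 109, and 29.2 against 37.4), and did not pass (adjusted p = 0.167 in limma). The main TNF receptor gene, Tnfrsf1a, had the largest fall in value on this list, -0.59 ± 0.18 (adjusted p = 0.122 in limma); it read 671 and 638 against 442 and 312, and 164 against 149. Over 7 tested microglia and macrophage markers, 0 passed (1 at an unadjusted p under 0.05 in limma), and their summed signal was 2505 and 2255 against 2557 and 2528, and 531 against 532. Their single changes went both ways, from -0.37 for C1qb to 0.56 for Tyrobp, with 2 below 0 and a median of 0.10.

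Adaptors and ubiquitin ligases, which relay the signal from receptor to kinase, had a median of 0.07 and no call in 18 tested genes (4 at an unadjusted p under 0.05 in limma). Malt1, a paracaspase that also cleaves A20, had the largest fall in value at -0.57 ± 0.19 (adjusted p = 0.146 in limma), and its other kept probe sets had -0.48 and -0.53. Its partner Bcl10 had the largest rise at 0.29 ± 0.11 (adjusted p = 0.182 in limma; 0.03 to 0.24 for its other probe sets). The IκB kinase list had 4 tested genes: Ikbkb, Ikbkg (the scaffold NEMO), Map3k14 (NIK of the non-canonical arm) and Tbk1. Their changes ran from -0.11 for Ikbkg to 0.09 for Tbk1, with a median of -0.03. None passed, and 0 had an unadjusted p under 0.05 in limma. The 5 other kept probe sets of Ikbkg ran from -0.01 to 0.41, 4 of them above 0, so no direction is given for it. Among 6 TRAF3 partners the median was -0.14 and no gene passed (1 at an unadjusted p under 0.05 in limma). Of these, Traf3ip1, a gene of the ciliary transport machinery, had -0.38 ± 0.16, with -0.57 and -0.00 in the batches, and the innate immune adaptor gene Sting1 had 0.18 ± 0.38.

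The tested genes among the other inhibitors had a median of 0.03, and none of the 15 passed (2 at an unadjusted p under 0.05 in limma). Tnip1 and Tnip2 encode partners of A20. Among the tested genes they had the largest rise and fall in value, 0.28 ± 0.11 (adjusted p = 0.191 in limma) and -0.55 ± 0.26 (adjusted p = 0.264 in limma). For Tnip2 the signal was 266 and 216 against 155 and 115, but 70.6 against 72.5 in the arrays scaled near 150. Under the filter lay 6 more genes of this list. Of these, the inhibitor gene Nfkbie read 36.7 and 55.7 in wildtype against 124 and 138, and 12.1 against 27.4. In the fit with no filter its change was 1.42 ± 0.43 (adjusted p = 0.18 in limma). In that fit Socs1 had -1.20, Rel -0.35, and Bcl3, Pdlim2 and Zc3h12a 0.03 to 0.49. Of 13 tested NF-κB target genes none passed (2 at an unadjusted p under 0.05 in limma) and the median was -0.16, with -0.08 and 0.05 in the batches. The stress gene Gadd45b had -0.61 ± 0.25, but its second kept probe set had 0.37, so no direction is given, and Ier3 had 0.27 ± 0.099.

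**Figure D3:**
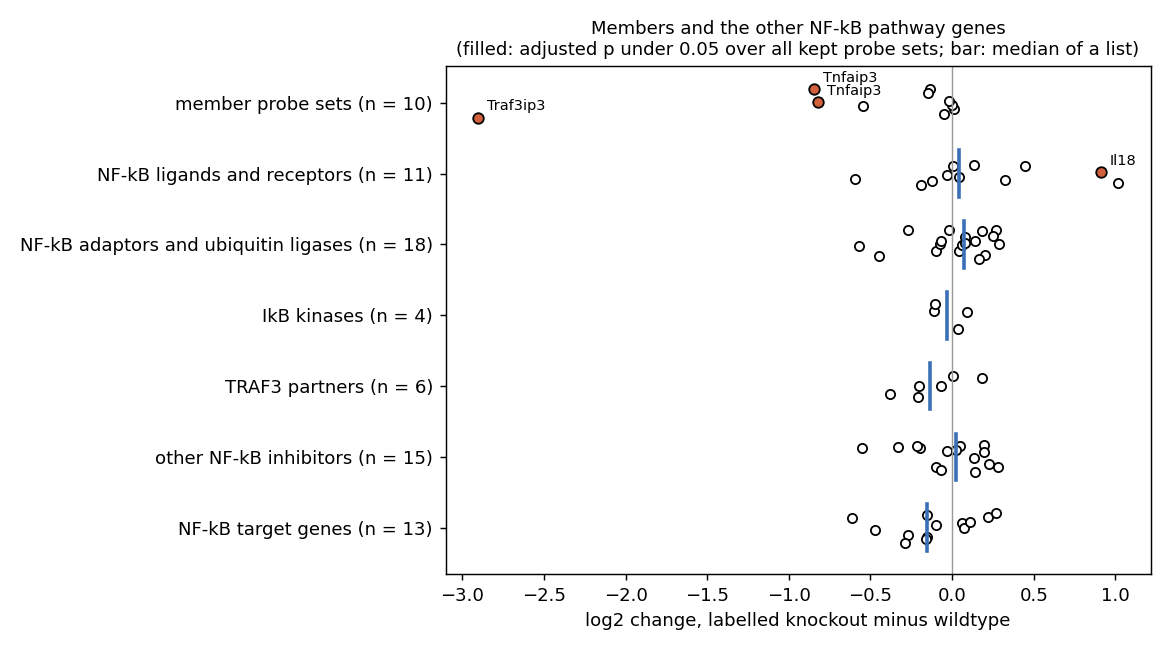
Log2 change, labelled knockout minus wildtype (horizontal axis), of the 10 kept member probe sets (top) and of the tested genes of 6 pathway lists, with a point per probe set or gene. Filled points passed an adjusted p of 0.05 over all kept probe sets, and bars mark the median of a list, from -0.16 to 0.07. Il18 is the only filled point among the 67 listed genes, and the member row reaches -2.91.

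Within the 4 arrays scaled near 500 alone the same fit called 7 of the 67 pathway genes, 6 of them lower, where 14.3% of all genes passed, 6.83% as lower. Besides Il18 (1.26) these were Tnfrsf1a (-0.82), Tab3 (-0.55), Malt1 (-0.83), Traf3ip1 (-0.57), Tax1bp1 (-0.25), which encodes an adaptor of A20, and Mmp9 (-0.45). In the arrays scaled near 150 the change was -0.14 for Tnfrsf1a, -0.24 for Tab3, -0.05 for Malt1, -0.00 for Traf3ip1, 0.22 for Tax1bp1 and 0.05 for Mmp9. Without wildtype replicate 3, or without knockout replicate 3, 6 of the 67 genes were called.

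Position was examined as a property that the choice of members did not use. Tnfaip3 lies on chromosome 10 and Traf3ip3 on chromosome 1, while Nfkbia lies on chromosome 12 with Esrrb, 160 places away in the order of tested genes, and Nfkb2 and Rela share chromosome 19. The 3 nearest tested genes on either side of Traf3ip3 had changes from -0.80 to 0.16 and those around Tnfaip3 from -0.78 to 0.55, and 0 of either 6 passed in limma (3 and 2 at an unadjusted p under 0.05, where 21.3% of all genes had one). The lowest neighbour of Traf3ip3 was A130010J15Rik at -0.80 ± 0.20 (adjusted p = 0.0705 in limma).

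The genes whose pattern was most like that of a member were named by Pearson's r of log2 values centred within each batch over the 6 arrays, which share the group difference and 2 scaling batches. For Tnfaip3 these were Tmlhe, Polg2, Camkk2, Guca1a and Cdkn2c, with r of 0.9990 or more; Guca1a, whose product GCAP1 activates guanylate cyclase in photoreceptors, had -2.11 and -1.26 in the batches. For Traf3ip3 they were Aff1, Fem1c, Tnr, AI504432 and R3hdm1, with r of 0.998 or more. An r above 0.95 was reached by 381 of 12535 genes (3.04%) for Tnfaip3 and by 322 (2.57%) for Traf3ip3. The 2 probe sets of Tnfaip3 had an r of 0.97 with each other, and 0.97 with Traf3ip3. Both genes were chosen on the group difference that enters this r, so nothing is read from it.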

How the data were processed

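RNA of 6 samples (3 per group, taken from the titles) was labelled after a single oligo dT amplification and hybridised to Affymetrix 3′ arrays, per the labels' protocols. The deposited file holds a linear intensity for each probe set in each array. The submitters' processing notes name GCOS 1.4 and MAS5, without their role or order. The trimmed mean (2% off either end) was near 500 or near 150, which set the scaling batch. Arrays carry no read depth, and 3 per group limits the precision.

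Of 45101 probe sets, 64 controls were left out and 27022 kept at or above the 40th percentile of mean log2 signal (a geometric mean of 54.5). Values were taken to log2 with no further normalization and fitted with limma 3.58.1 in R 4.3.3 (variance trend, batch as a block, two-sided, Benjamini-Hochberg over kept probe sets, threshold 0.05), a script checked on simulated data. Symbols came from the platform annotation, updated through gene IDs of the GRCm38.p6 table; 34945 probe sets had 1 symbol, 932 several and 9160 none. For a listed gene the kept probe set of highest mean signal was used, and 151 of 162 entries of 13 lists matched.

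Members and lists were chosen with earlier results of these data known. Named are all members, each pathway gene called, and the largest rise and fall in value among the tested genes of each list. Genes called only in the arrays scaled near 500, chromosomal neighbours and the pathway genes given from under the filter were named after their values were seen.

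Deviations of same-numbered samples from their group means correlated (0.57, 0.67 and 0.84, each over 0.1), but crossed numbers 1 and 2, which share a scaling batch, gave 0.61 and 0.63. The correlations thus do not separate pairing by number from the scaling batch, and the reported fit holds the batch alone. Alternatives left out the batch, used a replicate block, changed the filter, offset, normalization or variance prior, or left out each array.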

Additional observations from a re-analysis of the deposited data

How the results depend on the processing

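With 3 arrays per group and a single pair in the second batch, the calls depend on how the spread is estimated. In this balanced design the block, the filter and the variance trend leave each log2 change as it is, so these settings test the calls and not the directions. The count over all kept probe sets was 609 and became 0 with no scaling batch (118 at an unadjusted p under 0.05 in limma), 200 with a replicate block, 405 with no filter, 955 with the 60th percentile filter, 19 with no variance trend and 3687 in the arrays scaled near 500 alone. Leaving out each array in turn gave 77 to 3710 calls; leaving out either array of replicate 3 removes that batch from the comparison. The 3 called member probe sets became 0 with no scaling batch and with no variance trend, and 1 to 3 when each array was left out. The single call among pathway genes became 0 with no scaling batch, with a replicate block, with no filter, with quantile normalization within batches and with no variance trend (0, 11, 15, 13 and 7 at an unadjusted p under 0.05 in limma), 7 in the arrays scaled near 500 alone, and 0 to 6 when each array was left out.

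With a replicate block the second probe set of Tnfaip3 (adjusted p = 0.0622 in limma) and Il18 lost their calls, and no other call changed among the kept member probe sets and the 13 pathway genes named by rule; the genes named for likeness were not run under the alternatives. The signs of changes close to 0 moved. For the Nfkbia probe set 1448306_at the change was -0.00092 with an offset of 16, -0.025 with quantile normalization and -0.037 in the arrays scaled near 500 alone, and for 1438157_s_at it was -0.0045 with quantile normalization. Sting1 had -0.11 in the arrays scaled near 500 alone. With each array left out in turn, values ran from -0.037 to 0.045 for 1448306_at, from -0.096 to 0.11 for 1438157_s_at, from -0.10 to 0.10 for Rela and from -0.11 to 0.62 for Sting1. The causes of these shifts were not tested. No detection calls were used here, so signals under the array medians, such as those of Relb and of Traf3ip3 in labelled knockout arrays, have no stated distance to background.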
